A study of Homo sapiens with 6 samples.

Results

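Among the 236 genes of a NanoString cancer panel, 7 genes of the cell death machinery, chosen by name, were examined: the death receptors FAS and TNFRSF10B, the death ligand TNFSF10, the caspases CASP2 and CASP10, the death kinase DAPK1 and BIRC2, which encodes the inhibitor cIAP1. They were counted in NCM-460 cells, a line from normal human colon, in 3 samples transfected with a control siRNA (called control below) and 3 samples transfected with pri-miR-135b, the long precursor from which the microRNA is cut (called miR-135b). The assay counts each RNA molecule that binds a barcoded pair of probes and uses no amplification. Every sample is from the same line, and the labels do not give the time between transfection and harvest. Whether the 3 samples of a group were separate cultures is not stated in the labels, and the p-values therefore reflect a spread between samples that may be only technical. By the sample labels the kind of RNA also differs between the groups, which cannot be told apart from the microRNA itself, whereas the series text speaks of a scrambled and a miR-135b oligo. The microRNA itself is not on the panel.

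Death receptors are cell surface proteins whose cytoplasmic death domain, once a ligand is bound, gathers the adaptor FADD and initiator caspases, which then cleave and activate the executioner caspases. The ligand TNFSF10, also called TRAIL, uses TNFRSF10B for this, and the Fas ligand uses FAS. cIAP1 is a ubiquitin ligase that acts at receptors of the tumour necrosis factor family and holds cell death back, while DAPK1 is a calmodulin-regulated kinase with a death domain of its own that promotes cell death. Cell death is part of the turnover of epithelial cells in the intestinal lining, and DAPK1 is often silenced in tumours.

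The sequence of the transfected RNA is not given in the labels. The RefSeq stem-loop of miR-135b and its mature arms are shown because they define what distinguishes the treated group by its label. The stem-loop lies on the minus strand at chr1:205448302-205448398 (GRCh38.p14), within the spans of the genes LEMD1 and BLACAT1. Capitals mark the 2 mature arms in the stem-loop, and in the mature arms the seed, bases 2 to 8, with which a microRNA recognises its targets.
pre-miR-135b: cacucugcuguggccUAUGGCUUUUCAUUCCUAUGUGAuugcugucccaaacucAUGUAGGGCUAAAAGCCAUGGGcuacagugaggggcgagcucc
hsa-miR-135b-5p: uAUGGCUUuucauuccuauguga
hsa-miR-135b-3p: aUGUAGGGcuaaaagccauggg
The seeds of the 2 arms differ, AUGGCUU in the 5p arm and UGUAGGG in the 3p arm. No transcript sequences were used, so matches to them in the 7 genes were not looked for.

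Gene totals ranged from 250792 to 392207 counts per sample, with the lowest total at replicate 3 in each group. Background, the mean of a sample's 8 negative probes plus 2 SD, lay between 14.7 and 26.1 counts, and a gene was tested if it exceeded it in at least 3 of the 6 samples. The 6 epithelial markers looked at were above background in every sample, CDH1 (E-cadherin) among them, and their summed level, in normalised counts, ranged from 8168 to 8305 in control and from 9299 to 9472 in miR-135b samples. CDH1 and MET, which gave most of the sum, rose (log2 fold changes 0.28 and 0.32), ERBB3 and ERBB2 fell (-0.51 and -0.19) and the other 2 did not pass, with a median of -0.01. Of 12 blood cell markers on the panel, 7 were above background in no sample. Their sum, 1016 to 1149 in control and 792.1 to 809.4 in miR-135b samples, came mostly from SYK, a kinase that epithelial cells also express. SYK fell (log2 fold change -0.71), FYN of the same list rose (0.55) and 3 other tested markers did not pass. Over all genes tested 25.3% were called lower and 17.8% higher. Of 8 fibroblast and endothelial markers 4 were above background in no sample, and the sum was 94.1 to 132.1 in control and 112.9 to 137.7 in miR-135b samples. No marker of either list was at 0 in all samples, LCK and CSF1R being at the level of the negative probes. The part of the blood cell markers in the results was not tested.

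Of the 7 genes, 5 were tested, and each of these was above background in all 6 samples. DAPK1 and CASP2 fell and BIRC2 rose, while TNFRSF10B and TNFSF10 did not pass the test. The changes were moderate, 1.52-fold for DAPK1 and 1.20-fold for both CASP2 and BIRC2. The count of 3 called among 5 stands against a background of 43.1% of the 174 genes tested (75 genes) with an adjusted p under 0.05 in the quasi-likelihood test of edgeR. Of all genes tested 25.3% were called lower and 17.8% higher, against 2 and 1 of the 5. With so many genes of the panel called, the count shows nothing particular to these genes. The median log2 fold change of the 5, which is the value of CASP2, was -0.27, beside -0.04 over all 174 genes. The 5 values ran from -0.60 for DAPK1 to 0.26 for BIRC2. FAS and CASP10 lay at or near background. In such bulk samples fewer expressing cells and less RNA per cell cannot be told apart.

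**Figure D1:**
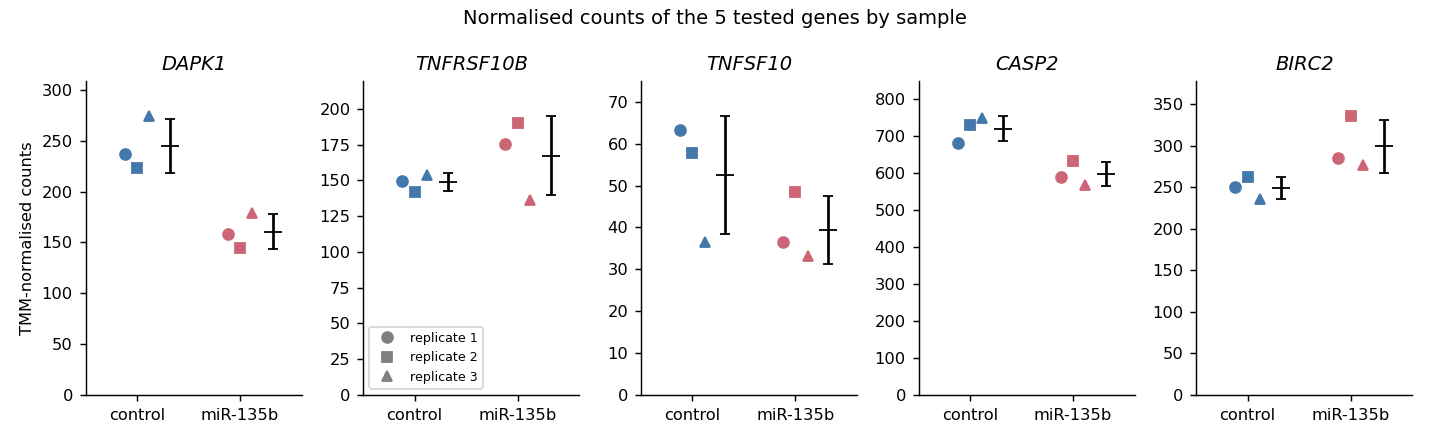
TMM-normalised counts (linear axes from 0) of the 5 tested genes in each sample, with the symbol giving the replicate number and the bar the mean ± SD of 3 samples. The groups lie apart for DAPK1, CASP2 and BIRC2 and overlap for TNFRSF10B and TNFSF10.

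DAPK1, the pro-death kinase, showed the largest change of the 5 tested genes. In replicates 1 to 3 its normalised counts reached 236.6, 222.9 and 274.3 with the control siRNA, against 158.1, 144.6 and 178.4 with pri-miR-135b. Every miR-135b sample lay below every control sample, also in the raw counts, at 243, 270 and 210 against 190, 146 and 140. In normalised counts such a gap between the groups was found in 51.7% of all genes tested, downward in 29.9% and upward in 21.8%. The share in raw counts was not determined. The mean went from 244.6 ± 26.6 to 160.4 ± 17.1 (SD, n = 3), which gave a log2 fold change of -0.60 with an SE of 0.11 (edgeR adjusted p = 6.3e-05). DAPK1 was thus 1.52-fold lower, with a 95% interval of 1.30 to 1.77, and had the fifth lowest log2 fold change of the 174 genes. It passed in all 18 alternative settings, with adjusted p between 1.74e-08 and 0.0175. Its counts were 8.76 to 15.6 times the background level of their sample.

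CASP2 encodes an initiator caspase that is activated on the PIDD1 platform, away from the death receptors. The control replicates 1 to 3 held 681.7, 730.5 and 747.3 normalised counts of it, and the matching miR-135b replicates held 590.0, 630.7 and 568.5. The groups did not overlap on this scale, though the lowest control sample and the highest miR-135b sample were close. In raw counts they did overlap, at 700, 885 and 572 against 709, 637 and 446, since the sample totals differ. The mean went from 719.8 ± 34.1 to 596.4 ± 31.6 (SD, n = 3), which gave a log2 fold change of -0.27 with an SE of 0.06 (edgeR adjusted p = 0.000973), or 1.20-fold lower with a 95% interval of 1.10 to 1.31. CASP2 had the steadiest counts of the called members, with a coefficient of variation of 4.73% in control and 5.30% in miR-135b samples. The call held in each of the 6 fits that left out 1 sample and was lost with spike scaling alone (log2 fold change -0.22, adjusted p = 0.368; range over all alternatives 8.8e-05 to 0.368).

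CASP10 encodes an initiator caspase that, like caspase 8, is recruited to death receptors through FADD. Its raw counts of 8, 9 and 4 under the control siRNA and of 11, 8 and 5 under pri-miR-135b were all below background. Between 4 and 7 of the 8 negative probes reached at least its count in each sample. CASP10 was therefore not detectable with this probe and no fold is given. The difference of the group means was 1 normalised count, with an exact permutation p of 0.40 (two-sided), where 3 against 3 samples cannot give less than 0.10.

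FAS, the receptor of the Fas ligand, was counted at the edge of background. Replicates 1 to 3 had raw counts of 12, 19 and 11 in the control group and of 16, 16 and 14 in the miR-135b group, and miR-135b replicate 1 alone exceeded its background level of 15.96. In the 3 miR-135b samples FAS lay above all 8 negative probes, while in the control samples 1, 1 and 2 negative probes reached its count. The highest negative probe was also lower in the miR-135b samples, at 13, 15 and 13 against 16, 26 and 20 counts. The normalised means were 13.9 ± 2.04 and 15.7 ± 2.27 (SD, n = 3), and their difference of 1.75 had an exact permutation p of 0.40 (two-sided). With background left in the counts, a difference in FAS was thus not detectable. Less the mean negative probe of each sample, replicates 1 to 3 kept 3.375, 6 and 3.375 raw counts under the control siRNA. Under pri-miR-135b they kept 6.25, 7.25 and 6.25. On that scale, which leaves the sample totals unscaled, the groups lay apart by a narrow gap, from 6 to 6.25. This difference was not tested, so whether FAS RNA differed is not settled. When every gene was tested without a filter, the 95% interval of the log2 fold change of FAS ran from -0.47 to 0.75. That fit used counts that include background, so the interval does not bound the change in FAS RNA.

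**Figure D2:**
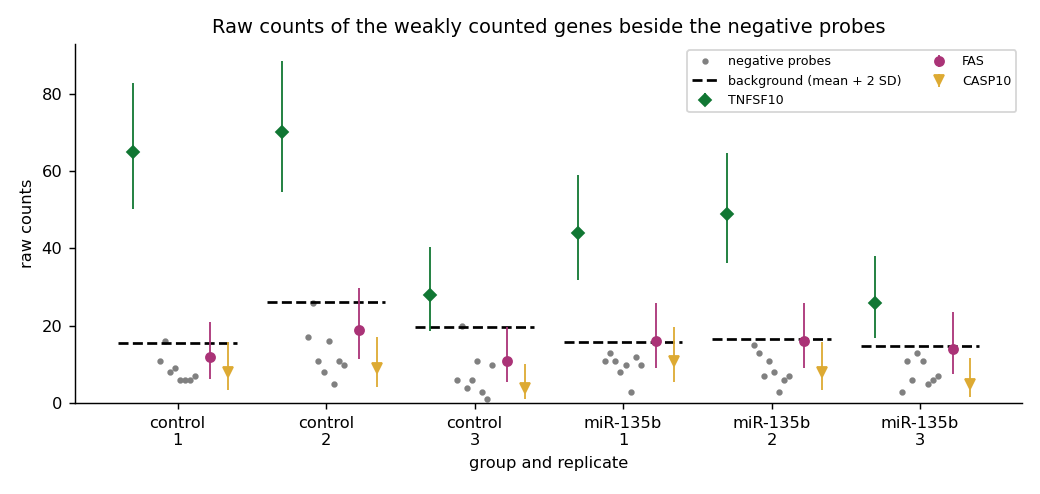
Raw counts (linear axis) of TNFSF10, FAS and CASP10 in each sample with exact 95% Poisson intervals, which cover counting error only, beside the 8 negative probes (grey points) and the background level (dashed line). TNFSF10 lies above background in all 6 samples, FAS near it and CASP10 among the negative probes.

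TNFRSF10B, a TRAIL receptor, was counted at 150.0, 142.0 and 154.2 (normalised) in the control replicates and at 175.6, 190.1 and 136.4 in the miR-135b replicates, in the order 1 to 3. Replicates 1 and 2 of the miR-135b group lay above every control sample and replicate 3 below every one. The means were 148.7 ± 6.19 and 167.4 ± 27.8 (SD, n = 3). The spread within the miR-135b group, a coefficient of variation of 16.6% against 4.16% in control, exceeded the difference between the means. The log2 fold change was 0.20 (SE 0.12, 95% interval -0.05 to 0.44, edgeR adjusted p = 0.18), so a rise of up to 1.36-fold lies within the interval. Without miR-135b replicate 3 it was 0.30 and passed (adjusted p = 0.0404; range over all alternatives 0.0169 to 0.574).

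TNFSF10, the ligand TRAIL, gave the fewest counts of the 5 tested probes. Its raw counts of 65, 70 and 28 under the control siRNA and 44, 49 and 26 under pri-miR-135b were 1.42 to 4.18 times the background level. After normalisation replicates 1 to 3 stood at 63.3, 57.8 and 36.6 in the control group, while the miR-135b group stood at 36.6, 48.5 and 33.1. Control replicates 1 and 2 lay above every miR-135b sample and control replicate 3 among them, so the groups overlapped. The means were 52.6 ± 14.1 and 39.4 ± 8.06 (SD, n = 3), with a log2 fold change of -0.44 (SE 0.21, 95% interval -0.88 to -0.01). This did not pass after adjustment (edgeR adjusted p = 0.0902). Without control replicate 3 it was -0.59 and passed (adjusted p = 0.0144; range over all alternatives 0.0144 to 0.376). Replicate 3, the sample with the fewest counts in its group, had the lowest normalised TNFSF10 level in both groups.

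BIRC2, which encodes cIAP1, was the one member called higher. Replicates 1 to 3 of the control group had 250.3, 261.7 and 235.2 normalised counts, and those of the miR-135b group 285.4, 335.7 and 276.6. All miR-135b samples lay above all control samples on this scale. The highest control sample and the lowest miR-135b sample were close, at 261.7 and 276.6. In raw counts, at 257, 317 and 180 against 343, 339 and 217, the groups did not separate. The mean went from 249.0 ± 13.3 to 299.2 ± 31.9 (SD, n = 3), which gave a log2 fold change of 0.26 with an SE of 0.09 (edgeR adjusted p = 0.0225), or 1.20-fold higher with a 95% interval of 1.05 to 1.36. This was the least secure of the 3 calls. It was lost without miR-135b replicate 2, where the log2 fold change was 0.17 (adjusted p = 0.168), and without control replicate 1 (0.26, adjusted p = 0.0537). It was also lost with spike scaling (0.31, adjusted p = 0.177) and with limma on the authors' deposited normalised values (0.26, adjusted p = 0.0754). The adjusted p for BIRC2 lay between 0.00522 and 0.177 across the alternatives.

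**Figure D3:**
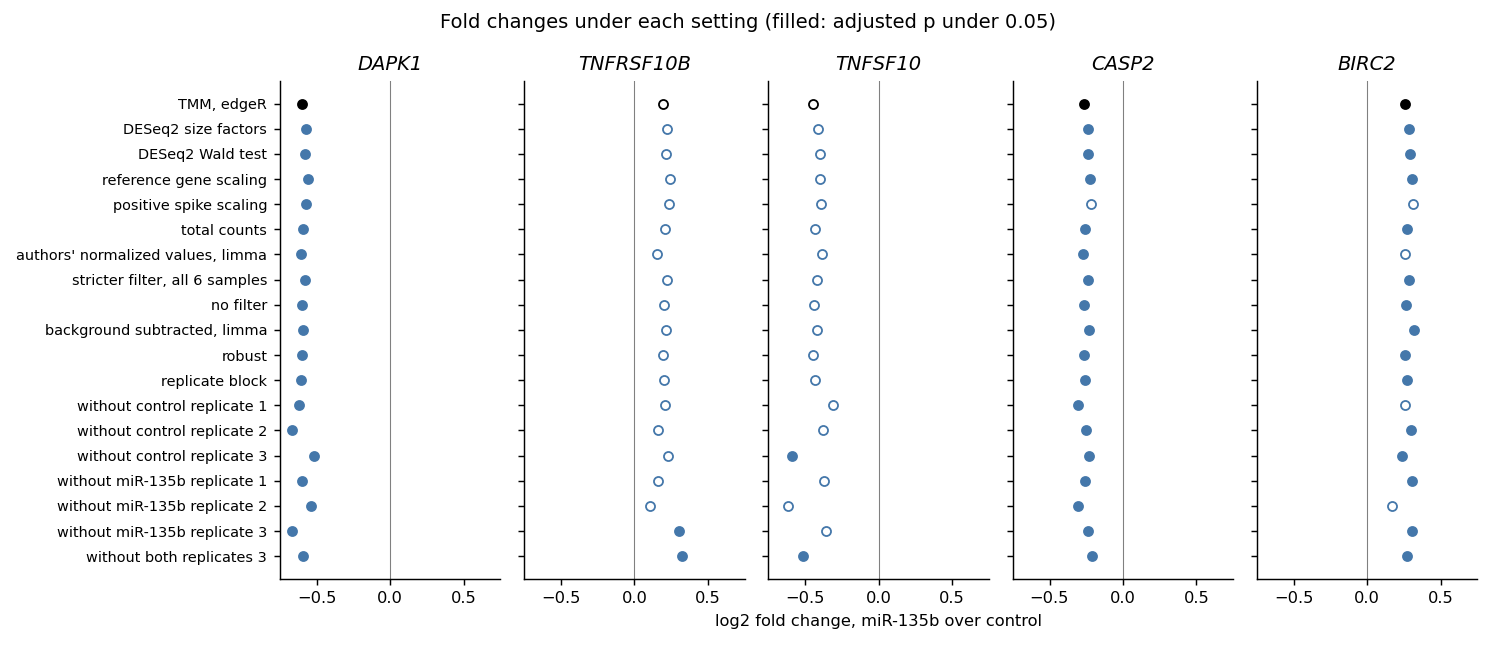
Log2 fold changes, miR-135b over control, of the 5 tested genes under the TMM fit with edgeR (black) and 18 alternative settings (blue), filled where the adjusted p was under 0.05. DAPK1 is filled in every setting, CASP2 in all but spike scaling, and the sign of none of the 5 turns.

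Ratios of 2 counts within a sample do not depend on the scaling. The raw count of BIRC2 over that of DAPK1 was 1.06, 1.17 and 0.857 in control and 1.81, 2.32 and 1.55 in miR-135b replicates 1 to 3. The inhibitor gene was thus higher relative to the death kinase gene in every miR-135b sample than in any control sample. BIRC2 over CASP2 was 0.315 to 0.367 in control and 0.484 to 0.532 in miR-135b samples, again without overlap. In normalised counts BIRC2 lay apart upward, and DAPK1 and CASP2 downward. Both ratios of BIRC2 therefore had to lie apart as well and add no support to the calls. The raw count of the receptor TNFRSF10B over its ligand TNFSF10 was 2.37, 2.46 and 4.21 in the control replicates and 4.80, 3.92 and 4.12 in the miR-135b replicates. Control replicate 3 alone lay within the range of the other group. CASP2 over DAPK1 overlapped as well, at 2.72 to 3.28 against 3.19 to 4.36. These ratios were chosen after the values were seen and are given as a description, and a ratio between probes does not measure a ratio between transcripts.

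**Figure D4:**
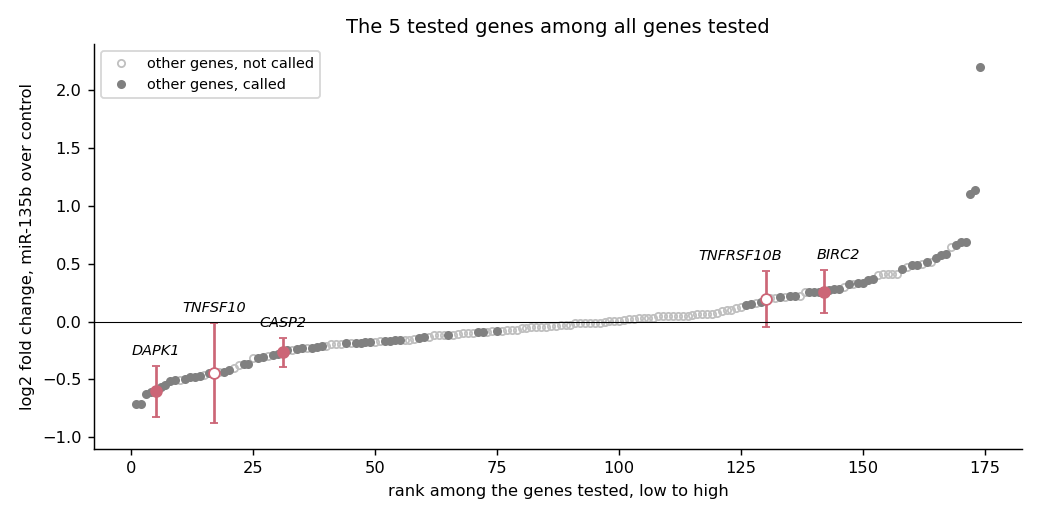
Log2 fold changes, miR-135b over control, of the 174 genes tested in ascending order (grey, filled where called), with the 5 tested members in red and their 95% intervals. DAPK1 stands near the lower end, at -0.60, while CASP2 (-0.27) and BIRC2 (0.26) lie among many genes of like size.

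The other panel genes of the pathway were few. Of a list of 25 death ligands, receptors, adaptors, caspases and death kinases, 8 are on the panel and 5 could be tested. DAPK1 and CASP2, both members, fell, none rose and 3 did not pass. Over all genes tested 25.3% were called lower and 17.8% higher. The gene of this list that is no member and could be tested, TNFRSF1B, a receptor of tumour necrosis factor, averaged 34.7 normalised counts without and 33.0 with pri-miR-135b (-0.10 on the log2 scale, SE 0.22). TNF itself was above background in 1 sample. The median of the 5 tested genes of this list was -0.27, again the value of CASP2, beside -0.04 for all genes tested. All but TNFRSF1B are members, so this median is not independent of theirs.

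Of the inhibitor of apoptosis list both panel genes were tested, and BIRC5 (survivin, an inhibitor that also acts in cell division) did not pass, at -0.07 (SE 0.04) against the 0.26 of BIRC2. Of 3 tested BCL2 family genes, which act at the mitochondrion, BCL2L1 (log2 fold change 0.69, SE 0.03) and MCL1 (0.27, SE 0.04), both anti-apoptotic, rose. Over all genes tested 17.8% were called higher. BCL2 did not pass, and its value of 0.41 (SE 0.30), from counts near background, is the median of the 3. The 4 genes of this family on the panel are all anti-apoptotic, and BCL2A1, below background in every sample, was not tested.

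Of 3 tested genes of the NF-kB list, IL8, a chemokine, rose (log2 fold change 2.20, SE 0.05), while REL and BCL3 did not pass. Over all genes tested 17.8% were called higher. The median of this list was -0.12, and 6 more of its genes were too close to background to be tested.

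The genes most like each tested member were sought by Pearson correlation of log2 normalised counts over the 6 samples. The 6 points form 2 groups and share their libraries, so these values are a description. DAPK1 was most like PPARG (r = 0.996) and MYB (r = 0.986), which fell too, with log2 fold changes of -0.32 and -0.45. In all, 19 genes had r over 0.9 with DAPK1, against 15 for CASP2, 2 for BIRC2 and 1 for TNFSF10. CASP2 was most like XRCC5 (r = 0.981), which fell by 0.18 on the log2 scale, and OGG1 (r = 0.964), which did not pass. BIRC2 was most like BCR (r = 0.947), not called, and HMMR (r = 0.902), which rose by 0.25 on the log2 scale. TNFRSF10B had no gene with r over 0.9, and the nearest named here was TOP2A (r = 0.835), which did not pass. TNFSF10 was nearest to GAPDH (r = 0.926), whose log2 fold change was -0.01. Among the members themselves DAPK1 and BIRC2 had r = -0.94 over the 6 samples and -0.88 after the group means were taken out. Values of like size were also found for the weakly counted TNFSF10. With the group means taken out it had r = -0.90 with DAPK1 and 0.81 with BIRC2, against 0.23 and -0.04 over the 6 samples. DAPK1 and CASP2, which both fell, had r = 0.80 over the 6 samples and -0.28 after the group means were taken out.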

How the data were processed

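Per the file headers, the deposited raw counts cover 236 genes, 6 positive spike probes and 8 negative probes and are whole numbers. They also deposited normalised values, used here as signal on a linear scale: dividing them by the raw counts gave 1 factor for each sample (0.826 to 1.29), and the sources used here do not give its basis. Per the labels' protocols, RNA was extracted with Trizol and brought to 33 ng per microlitre.

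Counts were tested with edgeR 4.0.16 in R 4.3.3 (TMM, glmQLFit, glmQLFTest, group as the only term, two-sided) over all 174 genes above background in at least 3 samples, with Benjamini-Hochberg adjustment and a threshold of 0.05. Library sizes were the totals of the 236 genes. SEs are the absolute log2 fold change over the square root of F. They draw on a spread pooled over genes. Normalised counts are scaled to the mean effective library size. A prior count of 2 was used for log2 values. The procedure was tested on simulated data. Replicate pairs differed by more than sampling noise.

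The alternatives were DESeq2 1.42.0 size factors and its Wald test, reference gene, spike and total count scaling, limma 3.58.1 on the deposited normalised values (pseudocount 1) and on background-subtracted counts, both other filters, a robust fit, the replicate block and leaving out samples. Leaving out both samples numbered 3 was added after seeing the data.

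The rule named every member, the 2 genes most like each tested member and the called genes of 5 lists. Genes not called in a list were named after their values were seen. Some genes that the rule selects, and 1 of the lists, are not reported here. Members and lists were chosen with earlier results of these data known. All 7 members matched RefSeq (GRCh38.p14) by accession without version. The files give no probe sequences, so which isoforms were counted is not known.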

Additional observations from a re-analysis of the deposited data

How the results depend on the processing

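Of 90 refits of the 5 tested members, 81 had the same direction and call, 5 were no longer called, 4 became called and 0 turned sign. The number of members called was 3. It became 1 with spike scaling, when DAPK1 alone passed, and 5 without both samples numbered 3, when TNFRSF10B (log2 fold change 0.33, adjusted p = 0.0169) and TNFSF10 (-0.52, adjusted p = 0.0401) passed too. This setting was chosen after seeing the data and leaves 2 samples a group; the cause was not tested. With any 1 sample left out there were 2 to 4 members and 60 to 76 of all genes. Over all genes spike scaling gave 27 calls, against 75 with TMM. Spike counts were 8.18% of gene counts in miR-135b replicate 2 and 11.3% in replicate 3. The share of calls that were higher was 41.3% with TMM, 55.2% with reference genes and 57.4% with background subtracted, while the median of all genes stayed between -0.04 and 0.03. The deviations of same-numbered samples had correlations of 0.02, -0.13 and 0.13, and 2 of 6 samples correlated best with their own number. With the replicate block 80 genes and the same number of members, 3, passed. For FAS and CASP10 the raw counts gave differences of 1.33 and 1 (exact permutation p = 0.80 for each). Low counts limit TNFSF10, FAS and CASP10.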
